A study of Mus musculus with 7 samples.

Results

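The sarcomeric myosin heavy chains of the mouse were examined in C2C12 myotubes, the multinucleated cells formed by a mouse myoblast line, with and without electrical pulse stimulation (EPS). The 9 members were Myh1, Myh2, Myh3, Myh4, Myh6, Myh7, Myh7b, Myh8 and Myh13, taken by symbol from the 26607 genes listed for each library. All 9 were above 0 in every library and belonged to the 19144 genes tested. Myotubes were used 3 days after the start of differentiation. The 4 EPS libraries (replicates 1 to 4) came from myotubes paced for 24 h and then rested for 1 h, and the 3 control libraries (replicates 1, 3 and 4) from unstimulated myotubes. All libraries were made from poly(A) RNA of the same established line. The labels do not say that the libraries came from separate cultures, so p-values measure only the spread between these libraries, which may be technical.

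The heavy chain is the motor of the thick filament: its head binds actin and splits ATP, its tail packs into the filament, and a pair of heavy chains joins with essential and regulatory light chains to form 1 myosin. Each gene encodes a motor of different speed. Adult fast fibers use Myh4 (type IIb), Myh1 (type IIx) and Myh2 (type IIa), slow fibers and the ventricle use Myh7, the atrium uses Myh6, and developing muscle uses Myh3 (embryonic) and Myh8 (perinatal). Myh13 is known from extraocular muscle, and Myh7b is an old member of the family that hosts a microRNA. In cultured myotubes the developmental genes are turned on first and the adult fast genes follow.

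On GRCm38, with GENCODE gene models, 6 members lay head to tail on the plus strand of chromosome 11 in the order Myh3, Myh2, Myh1, Myh4, Myh8 and Myh13, within 293.3 kb (chr11:67078300-67371586). Myh6 and Myh7 lay side by side on the minus strand of chromosome 14 (chr14:54941921-54994626), and Myh7b lay alone on chromosome 2 (chr2:155611212-155634307). Myh4 (ENSMUSG00000057003.12, chr11:67238029-67260446) has 39 exons and Myh7b (ENSMUSG00000074652.3) has 42 in the transcripts used here. The RefSeq promoters of Myh4, of its neighbor Myh1 and of Myh7b are printed because these genes carry the main contrast in the values that follow. Each runs from 250 bases before the RefSeq start site to 50 bases after it, written 5′ to 3′ on the gene's strand, and RefSeq and GENCODE do not place the start at the same base. Capitals mark E-boxes (CANNTG, the motif of MyoD-family factors) and matches to the MEF2 motif.
Myh4 (chr11:67237562-67237861, GRCm38.p6): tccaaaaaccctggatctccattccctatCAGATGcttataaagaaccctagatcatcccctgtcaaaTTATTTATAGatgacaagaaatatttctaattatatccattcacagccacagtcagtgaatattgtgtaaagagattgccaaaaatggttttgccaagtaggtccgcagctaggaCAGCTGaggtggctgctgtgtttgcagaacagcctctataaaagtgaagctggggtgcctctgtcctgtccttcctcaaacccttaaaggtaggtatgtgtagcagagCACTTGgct
Myh1 (chr11:67199852-67200151, GRCm38.p6): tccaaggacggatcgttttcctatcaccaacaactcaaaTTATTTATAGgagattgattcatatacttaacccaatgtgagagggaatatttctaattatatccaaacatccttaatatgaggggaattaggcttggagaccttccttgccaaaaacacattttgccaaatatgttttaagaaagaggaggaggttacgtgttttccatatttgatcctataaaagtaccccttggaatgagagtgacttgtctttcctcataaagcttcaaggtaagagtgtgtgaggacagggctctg
Myh7b (chr2:155610993-155611292, GRCm38.p6): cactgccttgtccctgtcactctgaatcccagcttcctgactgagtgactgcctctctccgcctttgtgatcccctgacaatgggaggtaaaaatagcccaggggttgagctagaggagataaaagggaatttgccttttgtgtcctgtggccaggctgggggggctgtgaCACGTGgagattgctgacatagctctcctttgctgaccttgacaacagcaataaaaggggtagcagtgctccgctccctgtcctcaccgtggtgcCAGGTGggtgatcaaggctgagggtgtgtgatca

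The Myh4 window held 3 E-boxes, 1 MEF2 match at position -182 from the start site and 3 TATAAA, at -213, -179 and -31, of which the one at -179 reads on the opposite strand and overlaps the MEF2 match. The Myh1 window held the same 10 MEF2 letters at -211, 2 TATAAA, at -208 and -32, and no E-box; the TATAAA at -208 again overlaps the MEF2 match. The Myh8 window also held these letters, at -99. The Myh7b window held 2 E-boxes, at -79 and 17, and no match to MEF2 or TATAAA. Both strands were searched. Of 32851 RefSeq mouse promoters of this length, 72.3% held an E-box, 3.19% a MEF2 match and 13.6% a TATAAA. These matches describe letters in the windows and no binding was measured.

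The copies are alike enough that counting could have been affected, which was not measured. Over the coding sequence Myh1 and Myh4 were 90.2% identical, Myh1 and Myh2 91.1%, and Myh6 and Myh7 91.7%, whereas Myh7b was 68.6 to 72.4% identical to the other members. Of all 100-base stretches of the Myh4 transcript, 3.85% also occurred unchanged in another member, against 9.73% for Myh1, 9.17% for Myh2, 1.15% for Myh3, 6.61% for Myh8 and 3.45% for Myh13. The shares were 11.4% for Myh6 and 11.2% for Myh7, in both cases shared with each other, and 0% for Myh7b. Reads from such stretches could have been split between the genes or dropped, and how the study's counting treated them is not given in the sources used here. The study sequenced paired reads of 100 bases, so these shares of single stretches are not the share of read pairs affected. The Myh4 quantitative PCR primers listed by the study show the same likeness and are printed for that reason. Both primers matched the Myh4 and the Myh1 transcript without a mismatch, and among 141767 GENCODE transcripts these were the only 2 genes with both sites exact. The forward primer also matched Myh8 exactly, and the reverse primer Myh2. The predicted product was 144 bases from the coding sequence of either gene. Capitals in the Myh1 and Myh2 products mark bases that differ from the Myh4 product, 3 for Myh1 and 16 for Myh2.
Forward primer: agagccaagaggaaactggagg
Reverse primer: ctcgtcctcaatcttgctctgc
Myh4 product: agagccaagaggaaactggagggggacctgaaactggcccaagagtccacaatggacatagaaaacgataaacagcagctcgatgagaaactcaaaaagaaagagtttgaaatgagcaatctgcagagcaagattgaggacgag
Myh1 product: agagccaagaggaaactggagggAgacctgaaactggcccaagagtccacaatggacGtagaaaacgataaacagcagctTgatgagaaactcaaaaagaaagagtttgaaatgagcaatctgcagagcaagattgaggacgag
Myh2 product: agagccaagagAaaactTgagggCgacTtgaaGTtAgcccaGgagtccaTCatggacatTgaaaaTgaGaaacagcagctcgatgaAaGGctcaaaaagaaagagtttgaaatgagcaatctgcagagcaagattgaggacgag

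Libraries held between 16616917 and 22120641 reads, and values were analysed as CPM, the reads of a gene scaled to the total of its library. Control replicate 4 stood apart in low counts: only 359 of its genes had 1 to 5 reads and 14014 were above 0, where the other 6 libraries had 2670 to 3181 and 16144 to 16984 such genes. Where it moved the value of a named gene by over 1.5 times, or decided its call, that value is also given without it. The same holds for the median of a gene list. The most abundant of 10 differentiation markers, Des (desmin) and Acta1 (skeletal actin), were high in every library: Acta1 averaged 3209 ± 404 CPM (SD, n = 3) in controls and 2971 ± 212 CPM (SD, n = 4) with EPS. The list as a whole is given further on, and 9 of the 10 had a negative log2 fold change. The 3 adipocyte, 4 macrophage and 3 nerve markers summed to at most 0.14, 2.76 and 0.372 CPM, with Plin1, Emr1 and Snap25 at 0. The macrophage sum was 0.641 to 1.08 CPM in controls and 1.26 to 2.76 CPM with EPS, without overlap. Of the 3 macrophage markers tested, 0 were called in limma and 1 had P under 0.05. The 5 fibroblast markers summed to 405 to 1039 CPM in controls and 253 to 492 CPM with EPS. Of these, 0 were called in limma (3 had P under 0.05), edgeR and DESeq2 each called Lum and Postn lower, and Pdgfra, singled out after its values were seen, was at 18.9 ± 5.99 CPM in controls and 30.3 ± 3.07 CPM with EPS, with every EPS library the higher. In bulk RNA of this kind, fewer myotubes and less RNA per myotube cannot be told apart.

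Across the 9 members, Myh4 and Myh7b were lower after EPS by more than 2-fold at an unadjusted P under 0.01 in limma, and no member was higher by this rule. In all, 0.439% of the tested genes were called lower and 0.966% higher (84 and 185 genes), a split that became 122 lower and 130 higher with quantile normalization and 120 and 134 with median-of-ratios scaling. After Benjamini-Hochberg adjustment over all tested genes, limma gave 0 members with adjusted p under 0.05, where 0.141% of genes passed, although 4 members had an unadjusted P under 0.05 (Myh2, Myh4, Myh7b and Myh13), as did 2224 of all tested genes (11.6%). The edgeR quasi-likelihood test and DESeq2, run on whole reads recovered from the CPM, each gave 2 members at adjusted p under 0.05, again Myh4 and Myh7b. In edgeR 1.51% of the 19144 tested genes passed, and in DESeq2 3.39% of 14676 genes. At P under 0.01 and over 2-fold, edgeR called 300 genes lower and 329 higher, and DESeq2 268 and 317. Every EPS library lay below every control library for 3 members (Myh2, Myh4 and Myh7b), an ordering that 2.85% of tested genes showed, and above every control library for Myh13, as 7.76% of tested genes did. The other 5 members overlapped. The log2 fold change was negative for 8 of 9 members, with a median of -0.61 against 0.041 over all tested genes. Members outside these calls depended on single libraries in size: without control replicate 4 the log2 fold change was -0.99 for Myh1, -1.02 for Myh2, -0.46 for Myh3, -0.77 for Myh6, -0.78 for Myh7 and -0.59 for Myh8, and without control replicate 1 it was -0.60, -0.53, -0.098, -0.11, -0.34 and -0.21 in the same order. The most negative values with any 1 library left out were -1.07, -1.05, -0.76, -0.77, -0.79 and -0.92, again in that order. None of these 6 was called with any library left out.

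**Figure D1:**
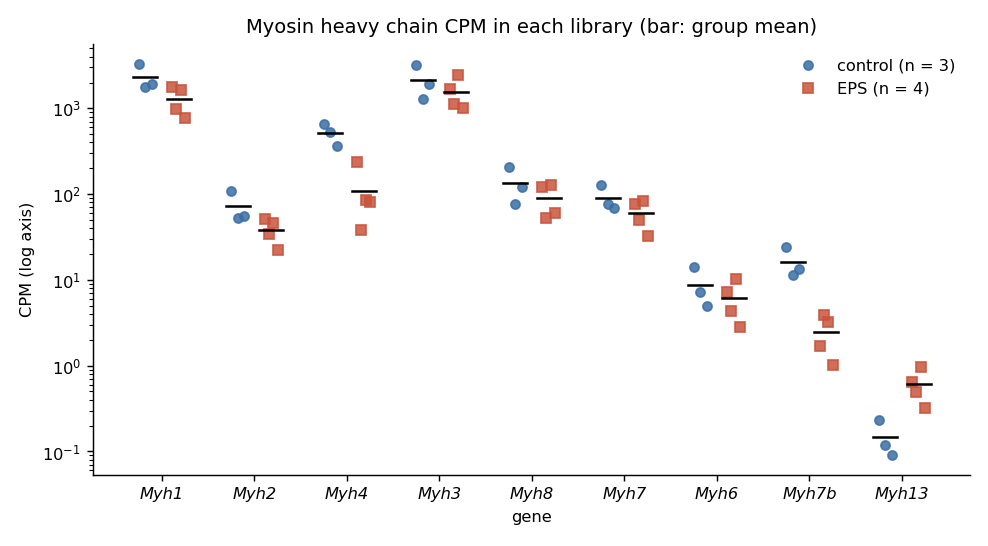
CPM of the 9 genes in each library on a log axis, with circles for control (n = 3), squares for EPS (n = 4) and bars for group means. The EPS squares lie clear below the control circles for Myh4 and Myh7b, just below them for Myh2 and above them for Myh13, and the other 5 genes overlap.

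Among the adult fast genes, Myh4, which encodes the fastest of the limb muscle heavy chains, was at 655, 525 and 363 CPM in control replicates 1, 3 and 4. After EPS it was at 237, 37.7, 85.2 and 80.3 CPM in replicates 1 to 4. Every EPS library was below the lowest control library, EPS replicate 1 came closest, and EPS replicate 2 was the lowest. The mean was 514 ± 146 CPM in controls (SD, n = 3) and 110.2 ± 87.5 CPM with EPS (SD, n = 4), a control level 4.67 times that of EPS. Without EPS replicate 1 the EPS mean was 67.7 CPM and the control level 7.59 times as high. In limma the log2 fold change on the scale of CPM + 1 was -2.48 (SE 0.52, 95% interval -3.67 to -1.30, adjusted p = 0.108), with an unadjusted P under 0.01. Without control replicate 4 it was -2.71 (limma adjusted p = 0.222) and still called, and without EPS replicate 1 it was -2.95. The call was lost, just short of the P threshold, without EPS replicate 4 (log2 fold change -2.43), without control replicate 1 (-2.29) and without control replicate 3 (-2.45). In edgeR the log2 fold change of Myh4 was -2.30 (adjusted p = 0.00346) and in DESeq2 -2.32 (adjusted p = 0.0375), and over the 15 alternatives that gave a value its adjusted p ran from 0.00346 to 0.5003.

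Myh1, the neighbor of Myh4 upstream on chromosome 11 and the most abundant member in controls, was not called. Its CPM was 3326, 1755 and 1932 in controls and 1763, 976, 1620 and 778 with EPS. EPS replicate 1 was within the control range by a narrow margin, so the groups overlapped, and EPS replicate 4 was lowest. Limma gave a log2 fold change of -0.89 (SE 0.42, 95% interval -1.84 to 0.069, adjusted p = 0.465). Myh2, the adult fast gene of type IIa fibers, was measured at 109, 52.4 and 55.1 CPM in controls and 50.8, 34.7, 46.4 and 22.5 CPM with EPS. The groups did not overlap, but EPS replicate 1 and control replicate 3 were close. Its log2 fold change was -0.87 (SE 0.34, limma adjusted p = 0.364), which passed neither the P nor the fold threshold. DESeq2 alone among the alternatives placed Myh2 past P under 0.01 and 2-fold, at a log2 fold change of -1.01.

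Neither developmental gene was called. Myh3, the embryonic heavy chain, was at 3191, 1274 and 1935 CPM in controls and 1663, 1131, 2448 and 1007 CPM with EPS. EPS replicate 3 exceeded 2 of the 3 controls. The log2 fold change was -0.44 (SE 0.46, 95% interval -1.48 to 0.60, limma adjusted p = 0.775). Myh8, the perinatal heavy chain, was at 207, 76.8 and 122 CPM in controls and 120, 52.3, 128 and 59.9 CPM with EPS, and its libraries were ordered much like those of Myh3. Its log2 fold change was -0.58 (SE 0.41, 95% interval -1.51 to 0.35, limma adjusted p = 0.642).

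Among the slow and cardiac genes, Myh7 was at 128, 76.2 and 68.6 CPM in controls and 76.8, 49.5, 83.5 and 32.9 CPM with EPS (log2 fold change -0.61, SE 0.34, limma adjusted p = 0.541). Myh6 was at 14.2, 7.28 and 5.02 CPM in controls and 7.17, 4.34, 10.1 and 2.81 CPM with EPS (log2 fold change -0.47, SE 0.44, limma adjusted p = 0.736). Both genes overlapped between the groups. Several noncoding genes, Mhrt among them, lie antisense to Myh7, and Gm49130 lies antisense to Myh6, Myhas to Myh1 and 9430073C21Rik to Myh2. The library kit keeps strand, but the strand setting of the counting is not given in the sources used here.

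Myh7b, the other called member, lies outside both clusters. It was at 24.1, 11.4 and 13.5 CPM in controls, that is 413, 189 and 298 reads. After EPS it was at 1.68, 3.85, 3.24 and 1.01 CPM, or 36, 79, 71 and 19 reads. The highest EPS library was well below the lowest control library. The means were 16.3 ± 6.81 CPM (SD, n = 3) and 2.44 ± 1.32 CPM (SD, n = 4), a control level 6.67 times that of EPS. Limma gave a log2 fold change of -2.35 on the scale of CPM + 1 (SE 0.39, 95% interval -3.23 to -1.46, adjusted p = 0.0712), and -2.44 without control replicate 4 (adjusted p = 0.155). The pseudocount pulls a gene of this level toward 0, and on recovered reads the log2 fold change was -2.84 in edgeR (adjusted p = 0.000156) and -2.86 in DESeq2 (adjusted p = 1.26e-08). Over its 15 alternatives the adjusted p ran from 1.26e-08 to 0.5003. The call held without each library in turn, with log2 fold changes from -2.55 to -2.04. Trpc4ap overlaps Myh7b on the opposite strand.

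Myh13 was the only member with a positive log2 fold change and the least abundant. Controls held 4, 2 and 2 reads of it (0.0904 to 0.233 CPM), and the EPS libraries held 14, 10, 21 and 6 (0.319 to 0.959 CPM). A floor of 3 reads corresponded to between 0.136 and 0.181 CPM, so 2 of the 3 controls were under their floor. Pooled over libraries, 51 EPS reads against 8 control reads gave a rate ratio of 4.31 (95% exact conditional binomial interval 2.03 to 10.5, covering counting error only), and 3.47 (1.49 to 9.89) without control replicate 4. Limma on CPM + 1 gave 0.47 (SE 0.13, adjusted p = 0.202). This passed the P threshold but is under 2-fold on that scale, and without control replicate 4 it was 0.43 and did not pass. With a pseudocount of 0.1 in place of 1 the limma value was 1.47, and both thresholds were passed. In edgeR and DESeq2 it was 1.93 and 1.96, and neither passed the P threshold.

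**Figure D2:**
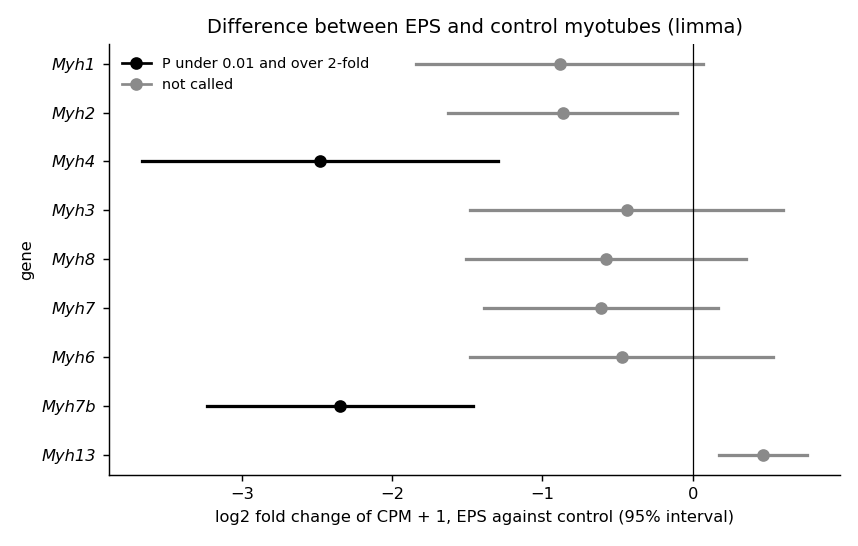
Log2 fold change of CPM + 1 for EPS against control with its 95% interval from limma, in black for the genes called at P under 0.01 and over 2-fold. Myh4 and Myh7b lie near -2.48 and -2.35 while the intervals of Myh1, Myh3, Myh6, Myh7 and Myh8 include 0.

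Placed along chromosome 11, the log2 fold changes were -0.44 for Myh3, -0.87 for Myh2, -0.89 for Myh1, -2.48 for Myh4, -0.58 for Myh8 and 0.47 for Myh13. The gene with the largest difference was thus flanked by Myh1 and Myh8, neither of which was called. The noncoding gene 2310065F04Rik, which lies between Myh3 and Myh2 and was singled out after its values were seen, averaged 2.13 ± 0.564 CPM in controls and 1.12 ± 0.594 CPM with EPS, with overlapping groups (log2 fold change -0.59, limma adjusted p = 0.379).

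Libraries of the same group also differed across members. Control replicate 1 was the highest library for 8 of 9 members, and EPS replicate 4 was the lowest for 6 of 9. The summed CPM of the 9 members was 7654, 3778 and 4495 in controls and 3920, 2290, 4426 and 1984 with EPS, between 0.198% and 0.765% of all counted reads. The groups overlapped, with means of 5309 ± 2062 (SD, n = 3) and 3155 ± 1200 (SD, n = 4). The difference in mean log2 sum was -0.77 (exact two-sided permutation p = 0.229 over 35 splits), and -0.47 without control replicate 1. Shares of this sum are free of a shift common to all members.

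Myh1 and Myh3 together made up most of the sum in every library. The Myh1 share was 43.5%, 46.4% and 43.0% in controls and 45.0%, 42.6%, 36.6% and 39.2% with EPS. The Myh3 share was 41.7%, 33.7% and 43.0% in controls and 42.4%, 49.4%, 55.3% and 50.8% with EPS. In EPS replicates 2 to 4 the Myh3 share exceeded that of Myh1 and of Myh3 in every control, whereas EPS replicate 1 was within the control range for both genes. The difference in mean share was 9.98 percentage points for Myh3 (exact two-sided permutation test over 35 splits, p = 0.0857) and -3.45 points for Myh1 (exact p = 0.229). Without EPS replicate 3 the Myh1 difference was -2.04 points.

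The share of Myh4 was 8.56%, 13.9% and 8.08% in controls and 6.06%, 1.64%, 1.93% and 4.05% with EPS. No EPS library reached the control range, and control replicate 3 was the highest. The mean share was 10.2% ± 3.23 in controls (SD, n = 3) and 3.42% ± 2.06 with EPS (SD, n = 4), with an exact permutation p = 0.0286, the smallest that 35 splits allow. The Myh7b share was 0.315%, 0.301% and 0.300% in controls, a narrow range, and 0.0427%, 0.168%, 0.0733% and 0.0509% with EPS (exact p = 0.0286). The Myh13 share was 0.00201% to 0.00319% in controls and 0.0161% to 0.0217% with EPS (exact p = 0.0286). Of the 12 shares compared, 9 for genes and 3 for classes, these 3 had groups that did not overlap. Their p-values are not adjusted for the 12 comparisons. The same exact test on log2(CPM + 1) of the gene itself gave p = 0.0571 for Myh4 and Myh13 and p = 0.0286 for Myh7b. The Myh4 and Myh7b shares draw on the same values as the calls and are no separate test. Without control replicate 4 the difference in mean share was -7.80 percentage points for Myh4, -0.224 for Myh7b and 0.0158 for Myh13. Shares of 1 library add up to 100% and are not independent of each other.

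**Figure D3:**
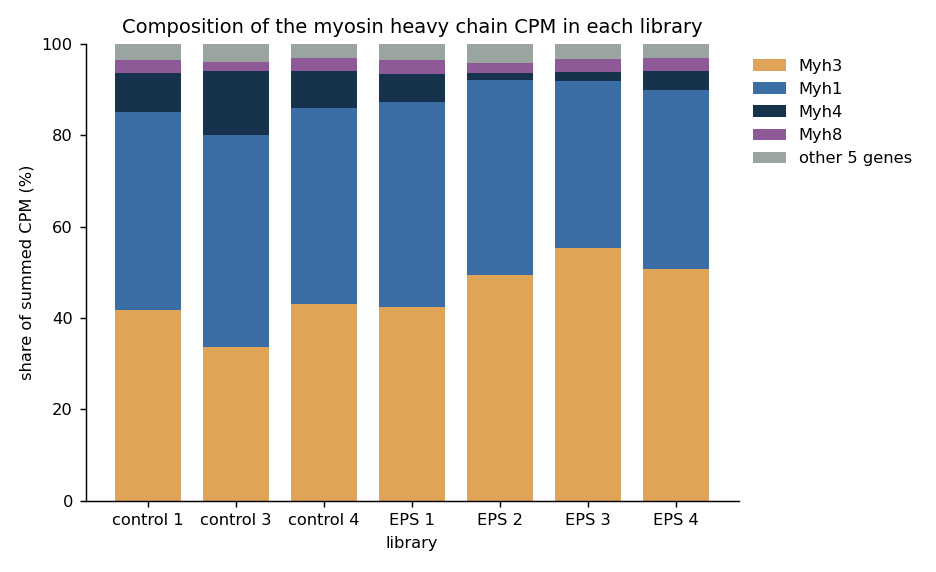
Share of the summed CPM of the 9 genes (%, stacked to 100) in each library. The dark Myh4 segment is 8.08% to 13.9% in the 3 controls and 1.64% to 6.06% in the 4 EPS libraries, and the Myh3 segment exceeds 49% in EPS replicates 2 to 4.

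By class, the adult fast genes Myh1, Myh2 and Myh4 held 52.3% to 61.7% of the sum in controls and 39.6% to 52.3% with EPS. The developmental genes Myh3 and Myh8 held 35.8% to 45.8% in controls and 45.5% to 58.2% with EPS. For both classes the groups overlapped through EPS replicate 1, which lay at the edge of the control range. Myh6, Myh7 and Myh7b together held 1.94% to 2.51% in controls and 1.85% to 2.52% with EPS, and Myh7 made up most of this class in every library.

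Ratios within a library compare genes without the summed total, and 6 pairs were examined after the values had been seen. The ratio of Myh1 to Myh4 was 5.08, 3.34 and 5.32 in controls and 7.42, 25.9, 19.0 and 9.68 with EPS. The ratio of Myh7 to Myh7b was 5.30, 6.70 and 5.09 in controls and 45.8, 12.9, 25.8 and 32.6 with EPS. In both pairs the EPS ratios all exceeded the control ratios (exact permutation p = 0.0571 for each on the log2 ratio). Both pairs divide by a called lower member, so these p-values restate the calls and are no separate test. The other pairs overlapped between the groups. Myh1 to Myh2 was 30.5 to 35.1 in controls and 28.1 to 34.9 with EPS, Myh7 to Myh6 was 9.01 to 13.7 and 8.24 to 11.7, and Myh3 to Myh8 was 15.4 to 16.6 and 13.9 to 21.6. The Myh3 to Myh1 ratio was 0.726 to 1.00 in controls and 0.943 to 1.51 with EPS, and overlapped through EPS replicate 1.

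**Figure D4:**
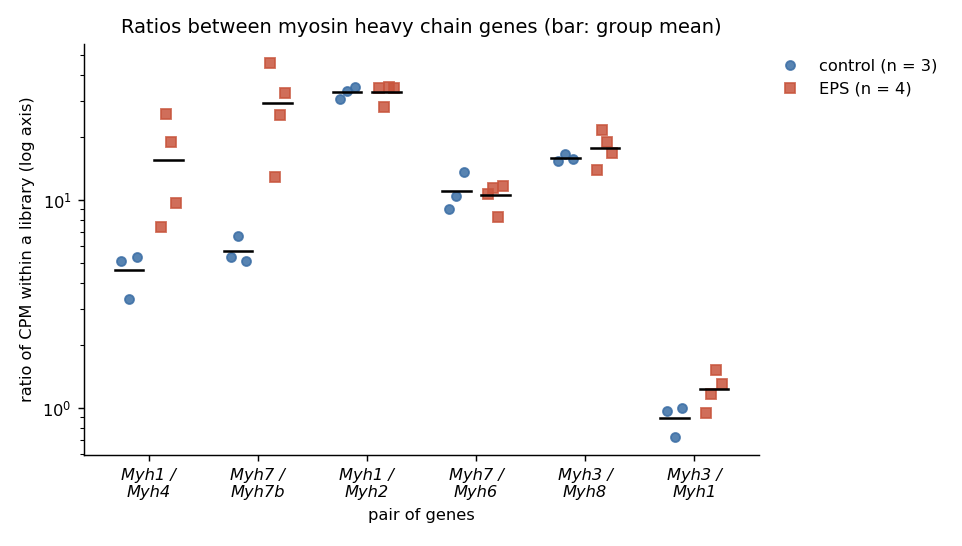
Ratio of CPM within each library for 6 pairs of genes on a log axis, with circles for control (n = 3), squares for EPS (n = 4) and bars for group means. Myh1 to Myh4 and Myh7 to Myh7b are higher in every EPS library than in any control, and the other 4 pairs overlap.

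Set against Acta1, a myotube gene of similar level in both groups, Myh4 was 13.1% to 18.3% of the Acta1 CPM in controls and 1.21% to 8.57% with EPS. Myh7b was 0.347% to 0.674% and 0.0359% to 0.124%. For both genes the groups were again apart. The summed members overlapped, at 115% to 214% and 70.6% to 142% of Acta1. The log2 fold change of Acta1 was -0.11, against a median of -0.44 over the 10 differentiation markers. Ratios to the other markers were not examined. Against Acta1, Myh2 also overlapped, at 1.60% to 3.05% in controls and 0.799% to 1.83% with EPS.

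Per kilobase of transcript, on which levels of different genes can be compared, the control order was Myh1 (384 ± 141 CPM per kb, SD, n = 3), Myh3 (354 ± 161), Myh4 (85.5 ± 24.3), Myh8 (22.0), Myh7 (14.6), Myh2 (11.9), Myh7b (2.65), Myh6 (1.44) and Myh13 (0.0244). The ranges of Myh1 and Myh3 overlapped, as did those of Myh8 and Myh7, of Myh7 and Myh2, and of Myh7b and Myh6, although in each of the last 3 pairs the first gene was above the second in all 3 libraries. With EPS the order was Myh3 (259 ± 109, SD, n = 4), Myh1 (211 ± 79.1), Myh4 (18.3 ± 14.5), Myh8 (14.7), Myh7 (9.74), Myh2 (6.34), Myh6 (1.00), Myh7b (0.397) and Myh13 (0.0997). Myh3 was above Myh1 in 3 of 4 EPS libraries, and Myh4, clear of Myh8 in controls, was above Myh8 in only 2 of 4. With EPS the ranges overlapped for Myh3 and Myh1, Myh4 and Myh8, Myh8 and Myh7, Myh7 and Myh2, and Myh6 and Myh7b.

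The genes whose log2(CPM + 1) followed Myh4 most closely over the 7 libraries, among 12255 genes of mean CPM at least 1, were D8Ertd82e (Pearson r = 0.98), Kif24 (0.97), Fmnl3 (0.96), Adamts1 (0.96) and Sema3e (0.95). Myh1 ranked 131st at r = 0.83 and Myh3 1085th at r = 0.50. For Myh3, the member of highest mean CPM, they were Irgq (0.99), Ehbp1l1 (0.99), Ryr1 (0.98), Mll3 (0.98) and Atp2b4 (0.98), and Myh8 ranked 40th at r = 0.96. For Myh7b, added after its values were seen, Fam78a (0.98), Popdc2, 9130023H24Rik, Mxd1 and Vav3 (0.97 each) led. These correlations share libraries and depth, span both groups and are descriptions of 7 points.

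A list of 20 tested genes held light chain, myosin-binding and M-band genes, and also Ttn, Mylk2, Mylk4, Trim54, Trim55, Trim63 and Smpx. Of these 20, 5 had a limma P under 0.05, 2 were called lower and 0 higher, and the list's median log2 fold change was -0.20. Without control replicate 4 this median lay between the values of Mybpc3 (-0.13) and Smpx (0.019). Mybpc1, the slow myosin-binding protein C that ties myosin to titin and actin, averaged 31.6 ± 9.74 CPM in controls and 7.27 ± 1.99 CPM with EPS (log2 fold change -1.96, limma adjusted p = 0.0542). Mylk4, a kinase of the myosin light chain kinase family, averaged 116.8 ± 36.6 and 44.3 ± 18.4 CPM (log2 fold change -1.42, limma adjusted p = 0.142). For both genes the EPS libraries all lay under the controls. Ttn, the titin gene that spans the sarcomere from Z-disc to M-band, was at 6366 ± 1940 and 5214 ± 1746 CPM. The fast regulatory light chain Mylpf, the partner of the fast heavy chains, was at 2791 ± 394 CPM in controls and 3355 ± 711 CPM with EPS (log2 fold change 0.25, limma adjusted p = 0.869).

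**Figure D5:**
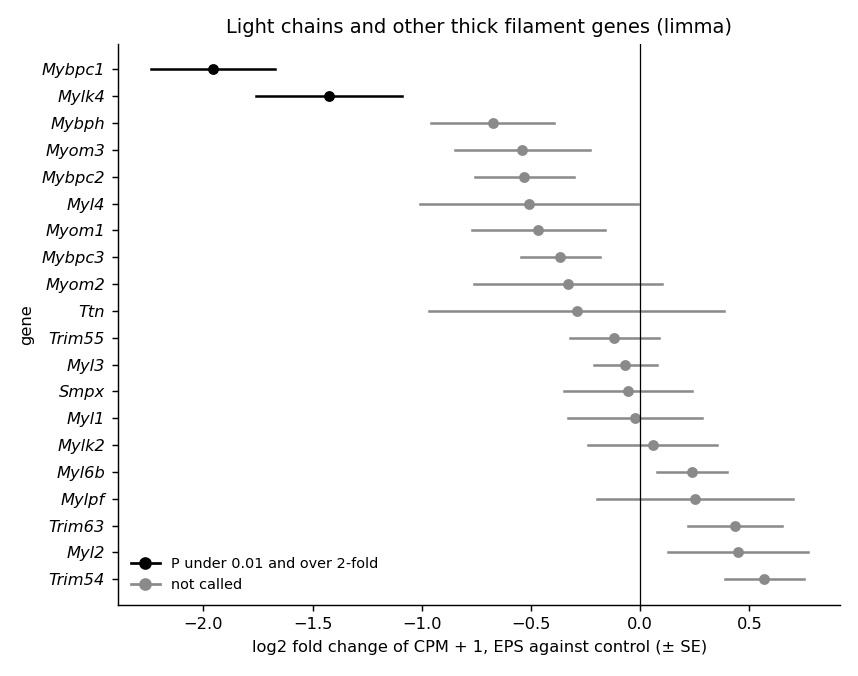
Log2 fold change of CPM + 1 with its SE from limma for the 20 tested genes of the light chain and thick filament list, in black for those called. Mybpc1 (-1.96) and Mylk4 (-1.42) are the 2 called genes, and Mylpf (0.25) lies to the right of 0.

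Other fiber genes were examined as lists. Of 13 fast fiber genes, 0 were called in limma, edgeR or DESeq2, and the median log2 fold change was -0.03. Without control replicate 4 the median was 0.0073, the value of Tnnt3. A limma P under 0.05 was reached by 3 of them, all with a negative log2 fold change and every control above the EPS libraries: the calcium pump Atp2a1 at 811 ± 171 CPM in controls and 489 ± 97.03 CPM with EPS, the calcium store protein Casq1 at 196 ± 45.4 and 121 ± 20.3 CPM, and the fast myosin-binding protein Mybpc2 at 28.7 ± 2.00 and 20.02 ± 5.26 CPM (limma adjusted p from 0.238 to 0.411). The most abundant of the list were Mylpf and the glycolytic enzyme Aldoa, at 1168 ± 165 CPM in controls and 1797 ± 236 CPM with EPS (log2 fold change 0.62, limma adjusted p = 0.461), with no overlap between the groups. Of 15 slow fiber genes, 7 had a limma P under 0.05, and 2 were called lower and 0 higher: Mybpc1 again, and the fatty acid transporter Cd36 at 64.1 ± 32.7 and 25.8 ± 7.58 CPM (log2 fold change -1.20, limma adjusted p = 0.219). The slow list had a median of 0.03, or 0.077 without control replicate 4 (the value of Tpm3), and edgeR and DESeq2 also called the Z-disc protein Actn2 lower. Of the 4 genes with P under 0.05 and a positive log2 fold change (Csrp3, Ankrd2, Myoz2 and Fabp3), the values ran from 0.59 to 0.74. Without control replicate 4, Ankrd2, a stretch-responsive protein of the I-band, was called higher in limma (log2 fold change 1.13). Of 7 developmental sarcomere genes, 0 were called in limma (1 had P under 0.05), edgeR or DESeq2. Myl4, the embryonic light chain, was at 2430 ± 1980 CPM in controls and 1406 ± 234 CPM with EPS. Control replicate 4 alone was at 4715 CPM, and without it the control mean was 1287 ± 59.9 CPM (SD, n = 2), below that of EPS. Tnnt2, the cardiac and embryonic troponin T, was at 1263 ± 140 and 1265 ± 196 CPM. Of 5 heavy chain genes outside the 9 members (Myh9, Myh10, Myh11, Myh14 and Myh15), 0 were called in limma (0 had P under 0.05) or DESeq2, and edgeR called 1, the smooth muscle gene Myh11, lower. This rested on control replicate 4 (3.53 CPM), without which Myh11 averaged 0.148 CPM in controls, within the EPS range of 0.140 to 0.274 CPM. Myh9, which serves the cytoskeleton, was at 1532 ± 337 and 1168 ± 304 CPM and Myh10 at 133.6 ± 39.8 and 176 ± 53.4 CPM.

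Of 9 chaperones of myosin folding and the sarcomere, 1 was called higher and 0 lower in limma, edgeR and DESeq2 alike, and 3 had a limma P under 0.05 with a positive log2 fold change (Hspb1, Hsp90aa1 and Cryab). The list summed to 2827 to 3513 CPM in controls and 4016 to 5300 CPM with EPS, without overlap. Its log2 fold changes went both ways, 5 positive and 4 negative. Smyd1, singled out after its values were seen, was at 143 ± 7.32 and 120 ± 8.92 CPM, with every EPS library the lower. The called gene was the small heat shock protein Hspb1, at 127 ± 19.3 CPM in controls and 415 ± 214 CPM with EPS (log2 fold change 1.56, limma adjusted p = 0.154), and without control replicate 4 it was 1.48 and not called in limma. Hsp90aa1 was at 378 ± 46.4 and 633 ± 165 CPM, with every EPS library the higher, and Cryab at 315 ± 91.3 and 576 ± 236 CPM, with overlapping groups (limma adjusted p = 0.307 and 0.406). Hsp90ab1, a cytosolic chaperone that works with the myosin-folding factor Unc45b, was the most abundant, at 1905 ± 383 and 2519 ± 451 CPM, with overlapping groups. Of 31 regulators of fiber type, 0 were called in limma (4 had P under 0.05) or DESeq2, and edgeR called Eya2 lower, a gene with a control mean of 0.215 CPM, or 0.118 CPM without control replicate 4. The most abundant were Mef2c, an activator of sarcomere genes, at 424 ± 146 and 259 ± 119 CPM (log2 fold change -0.80, adjusted p = 0.507), and Purb, a repressor of myosin genes, at 399 ± 74.5 and 388 ± 79.8 CPM.

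Of 10 differentiation markers, 0 were called in limma (3 had P under 0.05), and edgeR and DESeq2 each called Myog and Gm7325 (myomixer) lower. Myog (myogenin), which drives terminal differentiation, was at 473, 565 and 1794 CPM in controls and 278 to 605 CPM with EPS. Its highest value was control replicate 4, and the other controls were within the EPS range. Without that library the log2 fold change went from -1.07 to -0.47. Myod1, a myogenic factor singled out after its values were seen, was at 132 ± 30.3 and 72.5 ± 22.4 CPM, with every EPS library the lower. Its log2 fold change was -0.88 (limma adjusted p = 0.236), under 2-fold, and -0.73 without control replicate 4. Over the list the log2 fold change was negative for 9 markers, with -0.44 as the median, and the summed level was 9314 to 13656 CPM in controls and 7557 to 9926 CPM with EPS. Des was at 4118 ± 1537 and 2908 ± 620 CPM, with a control mean of 3276 CPM without control replicate 4. Of 9 markers of undifferentiated or cycling cells, 0 were called in limma (6 had P under 0.05), while edgeR and DESeq2 each called Mki67 and Ccnb1 higher and Id1 and Id3 lower. Over all genes, edgeR called 300 lower and 329 higher by this rule, and DESeq2 268 and 317. The control mean of Id1 was 27.0 CPM, or 17.7 CPM without control replicate 4. The summed level of these markers was 345 to 364 CPM in controls and 417 to 972 CPM with EPS, without overlap. Taken singly, 0 of the markers were higher in every EPS library, and 1, Id1, was lower in every one. Mki67, a marker of dividing cells, was at 108 ± 20.8 and 293 ± 154 CPM (log2 fold change 1.27, limma adjusted p = 0.275), and Top2a at 91.9 ± 20.5 and 178 ± 73.9 CPM. For both genes the groups overlapped. The part of these marker levels in the lower Myh4 and Myh7b was not tested.

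Besides Mir6923 in Myh3, 3 members host a microRNA within the gene, and their mature sequences are printed because they group by seed. Capitals mark the seed (bases 2 to 8), from RefSeq on GRCm38.p6.
mmu-miR-499-5p (in Myh7b): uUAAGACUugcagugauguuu
mmu-miR-208a-3p (in Myh6): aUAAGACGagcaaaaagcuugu
mmu-miR-208b-3p (in Myh7): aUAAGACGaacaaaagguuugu

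The seeds of the miR-208 pair were identical, and that of miR-499-5p differed in its last base. Mir499, Mir208a and Mir208b were listed with 0 reads in every library. Poly(A) libraries of this kind do not capture mature microRNAs, so the Myh7b values describe the host transcript alone.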

How the data were processed

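The deposited files held CPM, the reads of a gene scaled to its library total. Per the study's methods, the authors mapped paired poly(A) reads of 100 bases to GRCm38 with STAR (the submitters' processing notes give 2.5.4b); the counter, annotation and strand setting are not given in the sources used here. Every CPM value was a whole multiple of 1 read within the margin allowed, so reads were recovered. This margin was 1% of a read up to 100 reads and grew in proportion to the count above that. For the most abundant genes it was too wide to test whole reads. The main test was limma 3.58.1 (R 4.3.3, mean-variance trend) on log2(CPM + 1) for the 19144 genes above 0 in at least 1 library, with Benjamini-Hochberg adjustment, and calls at P under 0.01 and over 2-fold as in the study's results text. It was tested on simulated data. The study itself ran edgeR, and its methods text gives P under 0.001, so these calls are not the study's own. Shares, ratios, the summed CPM and log2(CPM + 1) of single members used exact two-sided permutation tests over 35 splits. Alternatives were edgeR 4.0.16 and DESeq2 1.42.0 on recovered reads, other pseudocounts, filters and scalings, and leaving out each library. Named genes were all members and, from each list, called genes or the 2 of highest mean CPM, with the 5 genes most like Myh4 and like the most abundant member. Genes named only for a P under 0.05, a call in edgeR or DESeq2, or as singled out were added after their values were seen. The members and lists were chosen with earlier results of these data known.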

Additional observations from a re-analysis of the deposited data

How the results depend on the processing

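No member's log2 fold change changed sign under any setting tried. The difference in the Myh6 share went from 0.023 to -0.0031 points without control replicate 4, and that of Myh6, Myh7 and Myh7b together from -0.019 to between -0.15 and 0.13 with a library left out. Members called at P under 0.01 and 2-fold were 2, but 3 with a pseudocount of 0.1 (Myh13 added) or DESeq2 (Myh2 added), 1 at P under 0.001 (Myh7b) and 1 to 2 when each library was left out. Members at adjusted p under 0.05 went from 0 to 2 with a pseudocount of 0.1, a mean of at least 1 CPM, edgeR or DESeq2, and stayed at 0 when each library was left out. Genes called lower went from 84 to 156 (pseudocount 0.1), 300 (edgeR), 268 (DESeq2), 35 (P under 0.001) and 52 to 82 with a library left out. Genes called higher went from 185 to 445, 329, 317, 71 and 116 to 173 under the same settings in turn. Genes at adjusted p under 0.05 went from 27 to 106 (pseudocount 0.1), 121 (mean of at least 1 CPM), 17 (quantile normalization), 290 (edgeR), 497 (DESeq2) and 0 to 12 with a library left out. The cause of these differences was not tested, beyond fewer libraries or genes where a setting removes them. The deposited scaling left the median log2 fold change of 12256 genes of mean CPM at least 1 at 0.10, and median-of-ratios scaling at -0.0048, with Myh4 then at -2.59 and Myh7b at -2.44. No source used here says that libraries of the same replicate number were cultured together. Their deviations from the group means correlated at 0.25, -0.45 and 0.068, values from few libraries that cannot settle whether the numbers pair them. With a replicate block on the 6 libraries whose number occurs in both groups, which leaves out EPS replicate 2, Myh4 was -2.08 and Myh7b -2.54, the same as without that library and no block, 2 members were called, 100 genes were called higher and 0 genes had adjusted p under 0.05. Under this block the Myh4 share differed by -6.16 points and the log2 summed CPM by -0.64, against -0.77 over all 7 libraries with no block and -0.98 to -0.47 with a library left out. At this depth Myh13 rests on 2 to 4 control reads a library.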
